A study of Drosophila melanogaster with 19 samples.

Results

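5-HT2, mGluRA and CG9935 are 3 neurotransmitter receptor genes of the fruit fly whose transcripts give circular RNAs in the head. All back-splice junctions that the deposited tables assign to these host genes were taken, whatever their level: 13 of the 4515 junctions listed in heads and of the 5323 listed in all. 5-HT2 had 7 of them, mGluRA 3 and CG9935 3. RefSeq matches each symbol to 1 gene: 5-HT2 is now 5-HT2A (FBgn0087012), mGluRA is mGluR (FBgn0019985) and CG9935 is Ekar (FBgn0039916).

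Neurotransmitter receptors sit in the membrane of nerve cells and turn a released transmitter into a response. 5-HT2A is a serotonin receptor that signals through G proteins, mGluR is the fly's G protein-coupled (metabotropic) glutamate receptor, and Ekar is a subunit of a kainate-type glutamate receptor, an ion channel opened by glutamate and known from the fly eye. A circular RNA forms when the end of a downstream exon is spliced back to the start of an upstream one, and reads across that join, the back-splice junction, count the circle.

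The flies were C4 mutants, whose RNA polymerase II elongates slowly ("slow"), and wild-type Canton-S ("WT"). Each genotype carries the number 29 or 18 in its sample titles, a number that no label explains, and each of these 4 combinations had 2 RNA samples. Every RNA sample, freed of ribosomal RNA, gave a library treated with RNase R, an exonuclease that degrades linear RNA, and a mock-treated library, so heads gave 8 libraries of each kind. S2 cells, a cultured line of embryonic origin, gave 1 library of each kind, and WT heads gave 1 more library that kept the strand. This stranded library was made without RNase R, and its title carries neither 29 nor 18. No label gives the age or sex of the flies or the number of heads in a sample, or says that replicates came from separate flies. The p-values therefore reflect how far these samples scatter, and that scatter may be technical.

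Listed back-splice reads numbered 4871 to 20254 in each of the 8 RNase R head libraries and 800 to 3427 in each of the 8 mock ones. Values are given as reads per 10000 listed back-splice reads of the library, so each is a share of all circles seen and not an amount of RNA; sequencing depth beyond these reads is unknown. The 3 genes together took 0.965% to 1.45% of the reads in the RNase R libraries and 0.904% to 1.75% in the mock libraries. Circles of neuronal marker genes were present in heads, with reads for 6 of 10 listed symbols, among them brp and cac, and absent from the S2 libraries. No circle of elav, Syt1 or fne was listed, which says nothing of their messenger RNA.

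Each gene gave 1 leading circle. 5-HT2 junction 1, at 3R:452695-454071 on the plus strand (dm3, as are all coordinates here), held 651 of the gene's 835 head reads, or 78.0%. Its span of 1377 bases equals the stretch from exon 3 to exon 5 in 4 of the 5 annotated transcripts, 868 bases once the introns are removed, all coding. This match is by length against a later annotation (BDGP6), since no annotation of dm3 was used here. 5-HT2 junction 2, at 3R:448231-449346, had 158 reads and the length of exon 2 alone, 1116 bases of which 1045 are coding. 5-HT2 junction 3, at 3R:448231-454071, had 12 reads and joins the outer ends of the other two, so that its length covers exons 2 to 5.

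mGluRA junction 1, at 4:958958-959743 on the plus strand, held 245 of 252 head reads, or 97.2%. Its 786 bases equal exon 2 of all 4 annotated transcripts, with 688 coding bases. mGluRA was thus represented almost wholly by a circle of a single exon.

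CG9935 junction 1, at 4:659641-661362 on the minus strand, held 243 of 330 head reads, or 73.6%. Its span of 1722 bases starts at exon 7 and takes in 5 or 6 exons, depending on the transcript, for 1357 to 1418 spliced bases. CG9935 junction 2, at 4:659592-661362 with 63 reads, shares the upstream end and runs 49 bases further downstream, a length that no annotated exon boundary gave. CG9935 junction 3, at 4:659641-664781 with 24 reads, shares the downstream end and begins at exon 4, with 8 or 9 exons.

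The remaining 6 junctions had 2 to 7 head reads each and 21 in all, too few to test. Of the 13 junctions, 8 were listed in both replicate tables and 8 had a span equal to an exon start to exon end stretch. Some weak junctions share an end with a strong one: 5-HT2 junction 5 begins 70 bases inside junction 1 and ends with it, and mGluRA junction 3 begins 20 bases before junction 1 and ends with it.

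**Figure D1:**
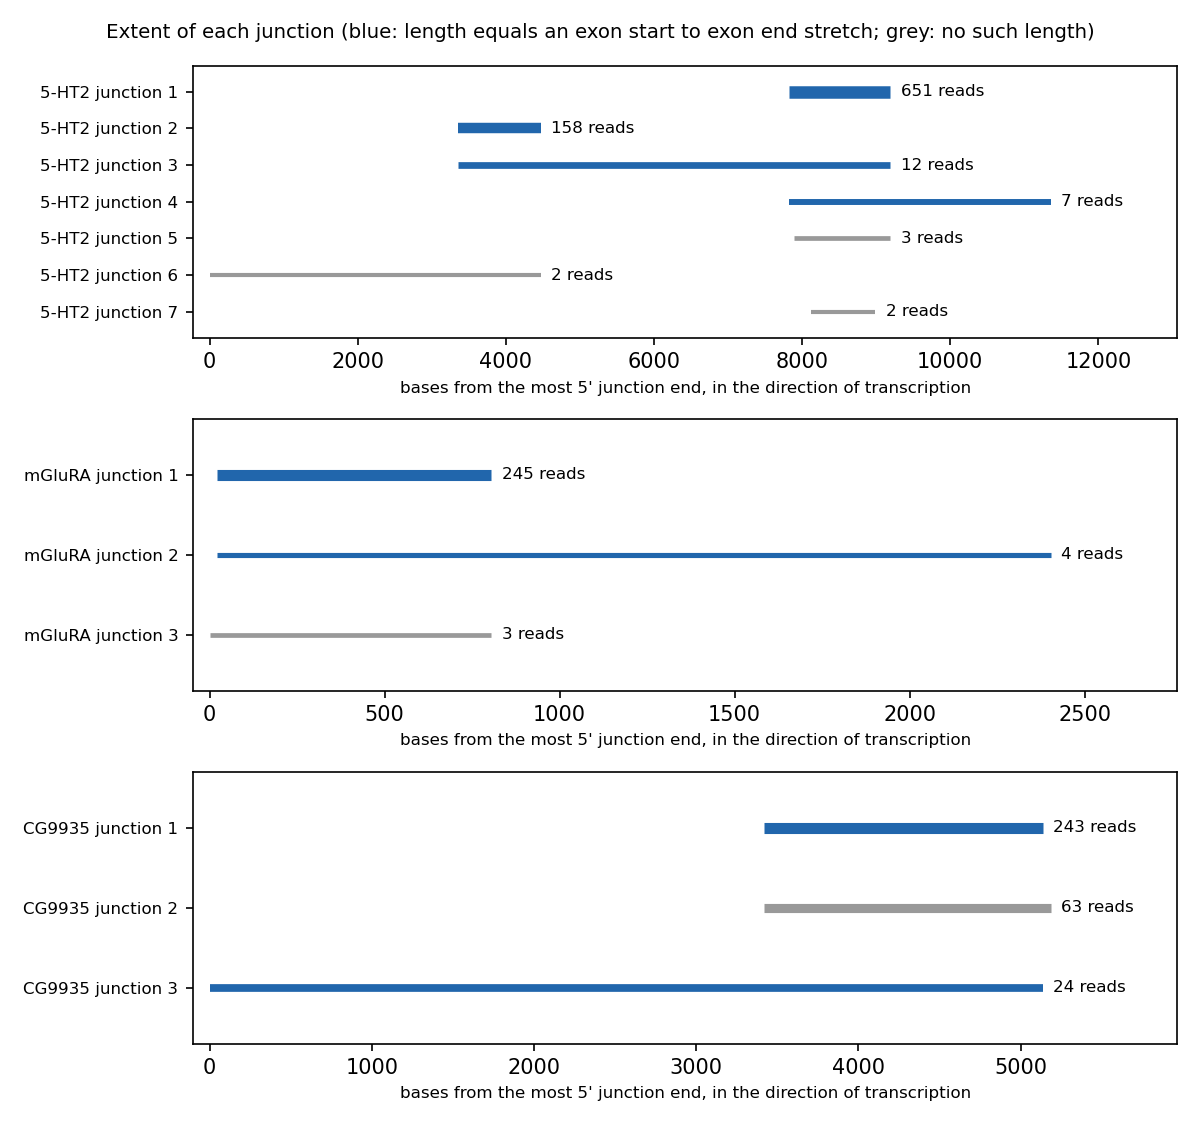
Span of the 13 junctions of 5-HT2, mGluRA and CG9935, in bases from the most 5′ junction end of each gene along the direction of transcription. Thicker lines mean more reads over the 16 head libraries (printed beside each line, on a log scale for the thickness), and blue marks the 8 junctions whose length equals an exon start to exon end stretch. Each gene has 1 junction with most of its reads: 651, 245 and 243.

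The study treated each RNA sample with RNase R to set circles apart from linear RNA. Relative to all circles, the main 5-HT2 circle rose after RNase R and CG9935 junctions 1 and 3 fell, while CG9935 junction 2 and the mGluRA circle did not pass the test. Of the 7 members that reached the 10 reads needed for a test, 3 were called at an adjusted p below 0.05, 1 higher and 2 lower, against 7.39% of the 1354 junctions tested (1.92% or 26 higher and 5.47% or 74 lower). The members' median log2 fold change was -0.66, beside 0.41 over all tested junctions. With at least 50 reads asked, 2 of 5 members were called, where 57 of 355 junctions were.

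5-HT2 junction 1 had between 46.2 and 80.2 reads per 10000 in the RNase R libraries (median 61.2), against 0 to 75.0 (median 33.2) in the mock libraries. It was higher after RNase R in 8 of 8 RNA samples, with means of 62.7 ± 13.2 and 35.5 ± 21.6 (SD, n = 8 each). Its log2 fold change was 0.98 ± 0.26 (SE; edgeR quasi-likelihood test, Benjamini-Hochberg adjusted p = 0.0044). Replicate 2 of slow29 had no junction 1 read in mock, and without that RNA sample the change was 0.76 with an adjusted p of 0.084.

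CG9935 junction 1 went the other way. It took 5.74 to 29.8 reads per 10000 (median 19.4) in the RNase R libraries and 22.6 to 94.4 (median 37.2) in the mock libraries. The value was lower after RNase R in 8 of 8 RNA samples, with means of 18.4 ± 9.12 and 45.6 ± 23.4 (SD, n = 8 each). The log2 fold change was -1.40 ± 0.27 (SE; edgeR adjusted p = 6.3e-06). The fall is in its share of all circle reads. The raw number of its reads was higher with RNase R in 8 of 8 samples, 181 reads in all against 62 in mock. That was so for mGluRA junction 1 and 5-HT2 junction 2 too. Listed reads numbered 99966 with RNase R and 13585 in mock, so raw counts do not bear on the fall. With the libraries scaled over all tested junctions, which moves the median of all junctions to 1.12, the change was -0.58 and not called (edgeR adjusted p = 0.11).

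CG9935 junction 3, the longest circle of this gene, had 1.14 ± 0.86 reads per 10000 after RNase R and 7.01 ± 7.93 in mock (SD, n = 8 each), from 14 and 10 reads. Its log2 fold change was -2.38 ± 0.64 (SE; edgeR adjusted p = 0.0044). CG9935 junction 2 changed by -1.01 ± 0.52 and was not called (edgeR adjusted p = 0.27). On the summed reads of the gene, CG9935 fell by 1.40 ± 0.24 on the log2 scale (edgeR adjusted p = 2.1e-07), the only one of the 3 host genes called, against 9.41% of 893 host genes. Marker lists moved with this comparison too: circles of 5 photoreceptor genes summed to 25.1 to 52.2 reads per 10000 in the RNase R libraries and 194 to 387 in mock, and circles of 5 muscle genes to 12.8 to 76.7 and 102 to 362.5. The fat body list, with reads for 4 of 5 genes, summed to 3.95 to 16.3 in the RNase R libraries and 20.4 to 75.3 in mock, also without overlap, whereas the neuronal list overlapped, at 99.6 to 196 and 103 to 251. A hemocyte (blood cell) list overlapped too, at 11.4 to 32.7 and 0 to 18.9, with the higher mean after RNase R (23.7 against 11.1). A glial list had 0 to 1.59 and 0. Their part in the CG9935 result was not tested.

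mGluRA junction 1 was higher after RNase R in 4 RNA samples and lower in 4, with a log2 fold change of -0.44 ± 0.30 (SE; edgeR adjusted p = 0.39); its sign flips, to 0.38, when scaled over all tested junctions. 5-HT2 junction 2 stood at 12.9 ± 2.91 reads per 10000 after RNase R and 16.4 ± 14.6 in mock (SD, n = 8 each; edgeR adjusted p = 0.48). The leading junction therefore made up 79.8% of 5-HT2 reads in the RNase R libraries and 57.4% in mock, and its share was higher after RNase R in 6 of 8 RNA samples. For CG9935 that share was 73.9% in the RNase R libraries and 72.9% in mock.

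**Figure D2:**
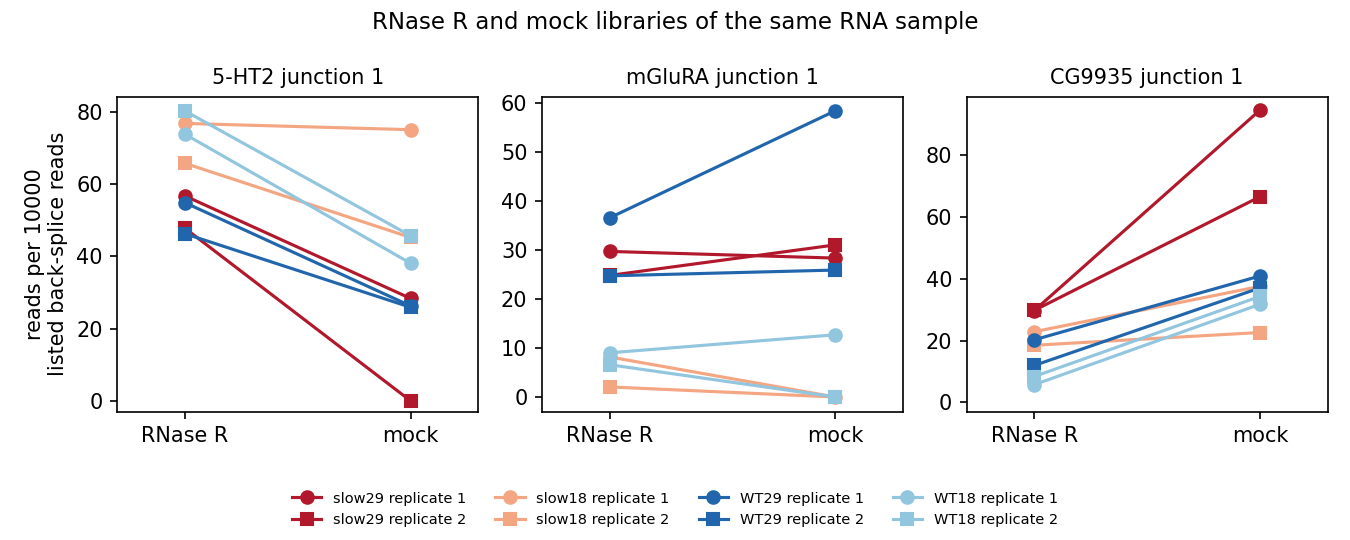
Reads per 10000 listed back-splice reads of the leading junction of each gene in the RNase R library (left) and the mock library (right) of the same RNA sample; a line joins the libraries of 1 RNA sample, and colour and marker give its group and replicate. The 5-HT2 lines are higher on the RNase R side in 8 of 8 samples, the CG9935 lines lower in 8 of 8, and the mGluRA lines split 4 and 4.

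The direction of the background depends on scaling in this comparison. Junctions called higher and lower numbered 26 and 74 here, 50 and 69 under RLE factors, 15 and 84 with factors over the 100 junctions with most summed reads, and 252 and 53 with factors over all tested junctions. In the last case 4 of the 7 member changes were positive, against 1 of 7 here.

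The comparison of the polymerase mutant with the wild type asks whether a slow polymerase alters circle levels. In RNase R heads, the leading CG9935 circle rose in slow flies and no other member passed the test: 1 of 7, against 3.03% of the 1221 junctions tested (0.901% or 11 higher and 2.13% or 26 lower). With at least 50 reads asked, 1 of 5 members was called, where 32 of 314 junctions were. CG9935 junction 1 had 29.7 and 29.8 reads per 10000 in slow29 and 22.9 and 18.5 in slow18, against 20.2 and 12 in WT29 and 5.74 and 8.38 in WT18. At each title number both slow libraries lay above both WT libraries, although over all 8 libraries the groups overlapped, since WT29 replicate 1 exceeded slow18 replicate 2. In such bulk samples, fewer cells of a type and less RNA per cell cannot be told apart.

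The means of CG9935 junction 1 were 25.2 ± 5.52 in slow and 11.6 ± 6.31 in WT (SD, n = 4 each), a log2 fold change of 1.09 ± 0.28 (SE; edgeR adjusted p = 0.0071) beside a median of -0.14 over all junctions. The difference was 0.85 ± 0.33 within 29 (edgeR adjusted p = 0.23) and 1.56 ± 0.48 within 18 (edgeR adjusted p = 0.18), neither called alone, where 2.29% and 0.41% of junctions were. The summed reads of CG9935 gave 1.02 ± 0.24 (edgeR adjusted p = 0.0023), the only one of the 3 host genes called, where 5.31% of 828 host genes were. Both calls were kept under every alternative that was run, with log2 fold changes of 0.99 to 1.43 for junction 1 when any 1 library was left out. Over all junctions, calls higher and lower numbered 17 and 19 under RLE and 4 and 6 in DESeq2.

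Circles of the 5 photoreceptor genes overlapped between genotypes in RNase R heads, at 27.3 to 52.2 reads per 10000 in slow and 25.1 to 40.1 in WT, as did those of the muscle list, at 17.1 to 76.7 and 12.8 to 41.3. The neuronal list overlapped as well, at 99.6 to 176 in slow and 109 to 196 in WT, and so did the fat body, hemocyte and glial lists. Listed reads numbered 4871 to 16134 in slow and 12205 to 20254 in WT. What these contribute to the CG9935 difference was not tested.

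CG9935 junction 2 stood at 5.57 ± 4.15 reads per 10000 in slow and 3.55 ± 1.06 in WT (SD, n = 4 each; edgeR adjusted p = 0.48). Junction 3 of CG9935 gave -0.77 ± 0.90 on the log2 scale (edgeR adjusted p = 0.77), on 4 reads in slow and 10 in WT. The share of CG9935 reads in its leading junction was 82.8% ± 12.1 in slow and 67.5% ± 7.91 in WT (SD, n = 4 each), a difference within the spread (exact two-sided permutation p = 0.0857, adjusted 0.257 over 6 such tests; 0.0286 is the smallest p possible).

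The 5-HT2 circles did not pass the test between genotypes. 5-HT2 junction 1 had 56.7, 47.7, 76.7 and 65.7 reads per 10000 in slow29 and slow18 and 54.8, 46.2, 73.7 and 80.2 in WT29 and WT18, with a log2 fold change of -0.01 ± 0.19 (SE; edgeR adjusted p = 0.997). That value lies so near 0 that its sign changes with the scaling. For mGluRA junction 1 the change was -0.23 ± 0.29 (edgeR adjusted p = 0.79).

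In mock heads no junction of 230 tested was called between slow and WT (0%), with 16 at an unadjusted p below 0.05 and 0 called by DESeq2 as well, so none of the 6 members tested was. CG9935 junction 1 had 94.4 and 66.5 reads per 10000 in slow29 and 37.5 and 22.6 in slow18, against 40.9 and 37.0 in WT29 and 31.7 and 34.2 in WT18. The slow29 libraries stood apart from the other 6 there. Its log2 fold change was 0.67 ± 0.43 (SE; edgeR adjusted p = 0.64). CG9935 junction 3 had 1 read in the slow mock libraries and 9 in the WT ones, with -2.07 ± 1.21 (edgeR adjusted p = 0.62). Host gene sums gave 0 of 3 calls, where 0.38% of 263 host genes were called.

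Between title numbers 29 and 18 the main circles of the receptors for glutamate and serotonin moved apart: that of mGluRA rose at 29 and that of 5-HT2 fell, although the second call depends on the scaling. mGluRA junction 1 had 29.7 and 24.8 reads per 10000 in slow29 and 36.5 and 24.7 in WT29 after RNase R, against 8.16 and 2.05 in slow18 and 9.01 and 6.58 in WT18. Every 29 library lay above every 18 library. The means were 28.9 ± 5.58 at 29 and 6.45 ± 3.10 at 18 (SD, n = 4 each), a log2 fold change of 2.02 ± 0.31 (SE; edgeR adjusted p = 1.9e-08).

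The same direction held within each genotype for mGluRA junction 1, with 2.21 ± 0.54 in slow (edgeR adjusted p = 0.0036) and 1.95 ± 0.38 in WT (edgeR adjusted p = 3.0e-05), where 3.19% and 7.37% of junctions were called. The difference between these was 0.26 ± 0.73 and not called (edgeR adjusted p = 0.98). No junction of 1221 was called for this interaction of genotype with title number (0%), with 50 at an unadjusted p below 0.05 and 0 called by DESeq2.

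In the mock libraries mGluRA junction 1 had 28.3 and 31.0 reads per 10000 in slow29 and 58.4 and 25.9 in WT29, against 0 and 0 in slow18 and 12.7 and 0 in WT18. These are 37 reads at 29 and 2 at 18, a ratio of 8.10 after correction for listed reads, with an exact 95% interval of 2.09 to 69.4 that covers counting error only. In the 3 libraries at 0, up to 33.9 to 37.5 reads per 10000 remain possible at their depth (3 reads). The log2 fold change was 2.89 ± 0.78 (SE; edgeR adjusted p = 0.017), the 1 call among 6 members where 4.78% of 230 junctions, 11 in all, were called (2 to 10 when any 1 library was left out). It was not called by DESeq2 (3.02, adjusted p = 0.50), without a count filter (2.89, edgeR adjusted p = 0.081), or without slow18 replicate 2 (edgeR adjusted p = 0.051), WT18 replicate 2 (0.079) or WT29 replicate 1 (0.18).

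5-HT2 junction 1 moved in the opposite direction. After RNase R it had 56.7 and 47.7 reads per 10000 in slow29 and 54.8 and 46.2 in WT29, against 76.7 and 65.7 in slow18 and 73.7 and 80.2 in WT18, so the title numbers did not overlap. Means were 51.4 ± 5.16 at 29 and 74.1 ± 6.18 at 18 (SD, n = 4 each), a log2 fold change of -0.61 ± 0.19 (SE; edgeR adjusted p = 0.017). Members called numbered 2 of 7, 1 higher and 1 lower, against 14.7% of all 1221 junctions (5.65% or 69 higher and 9.01% or 110 lower). With at least 50 reads asked, 3 of 5 members were called, where 112 of 314 junctions were.

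The 5-HT2 call rests on the scaling. The median of all junctions was -0.15, and under RLE factors, where it was 0.05, the change of junction 1 was -0.39 (edgeR adjusted p = 0.18). With factors over all tested junctions it was -0.37 (edgeR adjusted p = 0.24) and in DESeq2 -0.39 (adjusted p = 0.20). Without slow29 replicate 2 or WT18 replicate 2 the adjusted p was 0.052 and 0.058. The split of all calls, higher and lower, was 92 and 76 under RLE, 94 and 74 over all tested junctions, 49 and 40 in DESeq2 and 58 and 128 over the 100 junctions with most summed reads. In the mock libraries 5-HT2 junction 1 had 28.3, 0, 26.3 and 25.9 reads per 10000 at 29 against 75.0, 45.2, 38.0 and 45.7 at 18, without overlap but not called (-1.20 ± 0.52, edgeR adjusted p = 0.14).

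5-HT2 junction 2 did not share this pattern, with 13.5 ± 2.21 reads per 10000 at 29 and 12.3 ± 3.75 at 18 in RNase R heads (SD, n = 4 each; edgeR adjusted p = 0.92). The leading junction thus held 76.9% ± 2.65 of 5-HT2 reads at 29 and 84.3% ± 5.25 at 18 (exact two-sided permutation p = 0.0571, n = 4 each, adjusted 0.257).

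CG9935 junction 1 averaged 22.9 ± 8.56 reads per 10000 at 29 and 13.9 ± 8.13 at 18 in RNase R heads (SD, n = 4 each), with 0.77 ± 0.29 on the log2 scale and an edgeR adjusted p of 0.058. It passed under RLE (0.997, edgeR adjusted p = 0.0082), over all tested junctions (1.03, 0.0065), in DESeq2 (1.0, adjusted p = 0.039), with at least 50 reads asked (0.77, edgeR adjusted p = 0.035) and without WT29 replicate 2 (0.87, edgeR adjusted p = 0.027). The highest group was slow29 and the lowest WT18, with slow18 and WT29 overlapping between them.

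On summed reads all 3 host genes were called between title numbers in RNase R heads, where 15.1% of 828 host genes were. With at least 50 reads asked, 98 of 337 host genes were called, these 3 included. mGluRA gave 2.04 ± 0.30 (edgeR adjusted p = 6.8e-10), CG9935 0.82 ± 0.25 (edgeR adjusted p = 0.0098) and 5-HT2 -0.46 ± 0.17 (edgeR adjusted p = 0.041). The 5-HT2 sum was not called under RLE (-0.24, edgeR adjusted p = 0.37), over all tested rows, in DESeq2, without a filter or without any of 7 of the 8 libraries. The CG9935 sum was not called without slow18 replicate 2 (0.71, edgeR adjusted p = 0.055), WT18 replicate 1 (0.67, 0.10) or WT29 replicate 1 (0.68, 0.075). In mock heads the mGluRA sum was called (2.95 ± 0.79, edgeR adjusted p = 0.034), against 1.9% of 263 host genes, and it lost that call without any of 6 of the 8 libraries, by DESeq2 or without a filter.

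Circles of some marker lists differed between title numbers as well. In RNase R heads the neuronal list summed to 151 to 196 reads per 10000 at 29 and 99.6 to 117 at 18, without overlap, and the muscle list to 12.8 to 23.1 at 29 and 36.1 to 76.7 at 18, also without overlap. The photoreceptor list overlapped, at 27.3 to 38.3 and 25.1 to 52.2. So did the fat body list, at 3.95 to 12.4 and 6.16 to 16.3, and a hemocyte (blood cell) list, at 20.2 to 32.7 and 11.4 to 30.8. The glial list, with 5 head reads, had 0.494 to 1.59 at 29 and 0 at 18. Listed reads numbered 11115 to 20254 at 29 and 4871 to 16714 at 18, which overlap. What these contribute to the mGluRA, 5-HT2 and CG9935 differences was not tested.

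**Figure D3:**
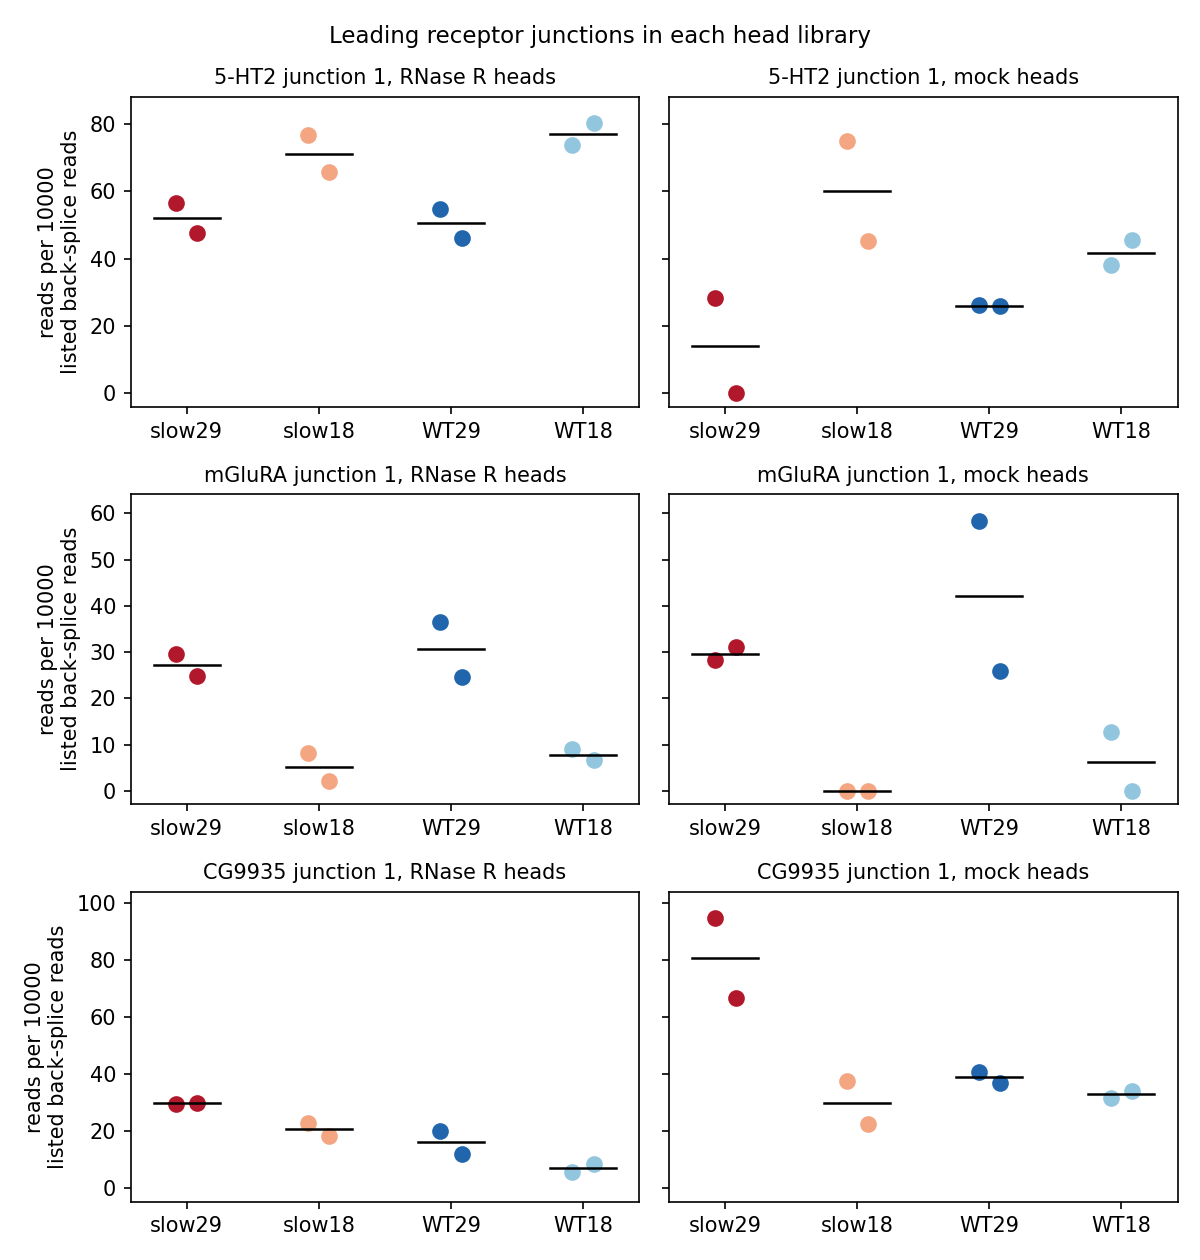
Reads per 10000 listed back-splice reads of the leading junction of each gene in every head library, RNase R on the left and mock on the right; points are libraries and black lines the means of 2 replicates. After RNase R, mGluRA separates 29 (24.7 to 36.5) from 18 (2.05 to 9.01), 5-HT2 separates 29 (46.2 to 56.7) from 18 (65.7 to 80.2), and CG9935 is higher in slow than in WT at each title number.

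**Figure D4:**
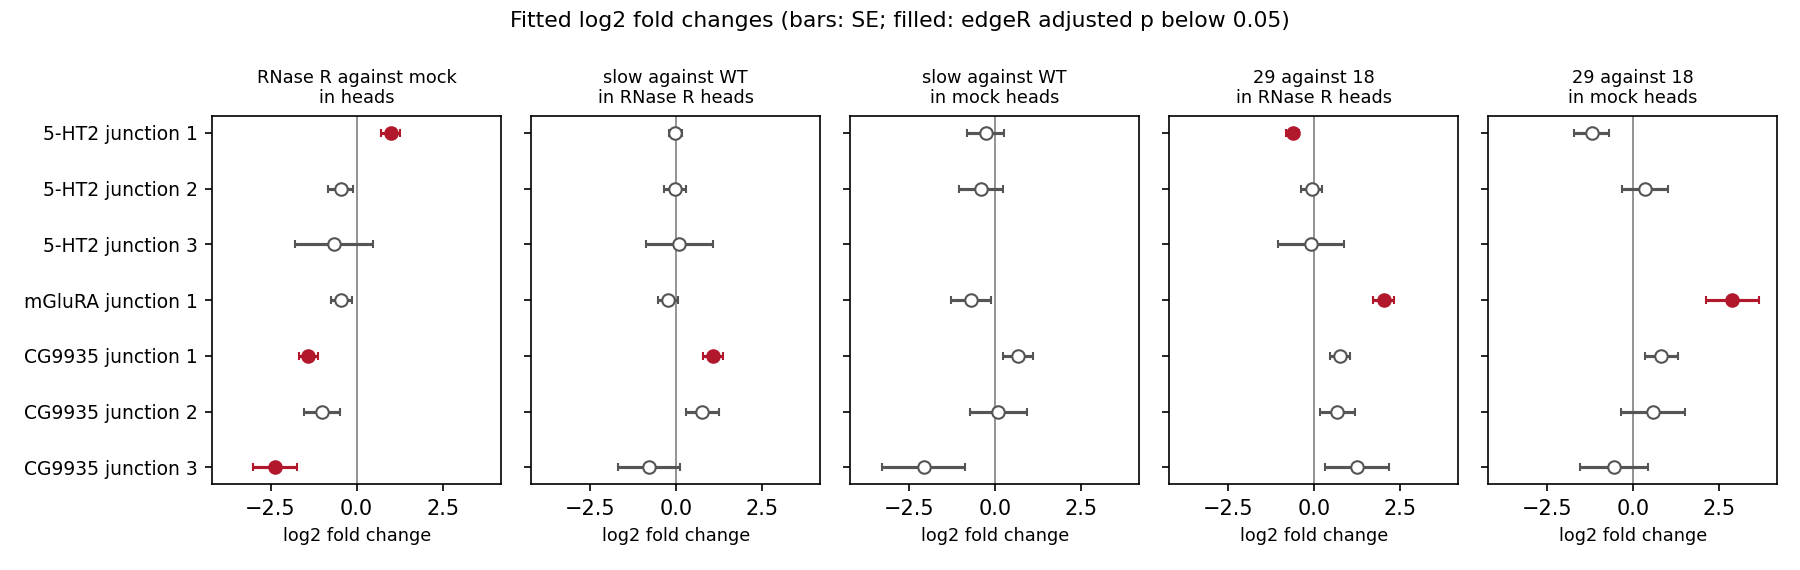
Fitted log2 fold changes with their SE for the 7 junctions tested, in 5 comparisons; red filled points have an edgeR adjusted p below 0.05 and open points do not. Calls fall on CG9935 junction 1 in the treatment and genotype comparisons, on CG9935 junction 3 for treatment, on 5-HT2 junction 1 for treatment and title number, and on mGluRA junction 1 for title number in both RNase R and mock heads.

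Among all circles of RNase R heads, 5-HT2 junction 1 ranked 13th of 4334 by mean level, CG9935 junction 1 ranked 74th, mGluRA junction 1 79th and 5-HT2 junction 2 118th. In mock heads, with reads for 2339 junctions, the order was different: CG9935 junction 1 came 17th, 5-HT2 junction 1 32nd and mGluRA junction 1 67th. In the stranded library 5-HT2 junction 1 had 27 reads, 104 per 10000 (exact binomial 95% interval 68.6 to 151, counting error only), and ranked 9th of 447. CG9935 junction 1 had 9 reads there, and 5-HT2 junction 2 and mGluRA junction 1 had 2 each. The strand was the same in both data sets for each of the 410 junctions they share, these 4 included. The stranded library lists no junction with 1 read, whereas each mock head library lists 314 to 623 of them. Its shares and ranks therefore have a different base and cannot be set directly beside those of the head libraries.

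Few reads of these circles were found in S2 cells. The S2 RNase R library, with 14874 listed reads, and the S2 mock library, with 4421, held no read of 5-HT2 or mGluRA. For a junction without reads the exact binomial 95% upper limits are 2.48 and 8.34 reads per 10000. CG9935 junction 1 had 2 reads (1.34 per 10000, exact binomial 95% interval 0.163 to 4.86) in the RNase R library and 1 read (2.26, interval 0.0573 to 12.6) in the mock library. S2 cells had 1 library per treatment, so no test was made.

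Other neurotransmitter receptor genes also gave circles: 67 junctions of 23 host genes in heads, mostly sparse. For RNase R against mock, 1 of 26 tested was called, lower, where 7.39% of all 1354 junctions were called. This was nAcRalpha-30D (an acetylcholine receptor subunit, 2L:9869532-9878025), with 5 reads against 7. That call was lost in DESeq2 (0 called) and without slow29 replicate 2 or WT29 replicate 1. With factors over all tested junctions 7 were called, 6 higher and 1 lower, where 305 of all 1354 junctions were (252 higher and 53 lower). The direction among these receptors thus depends on the scaling. On summed reads 1 of 16 such host genes was called, higher, where 9.41% of 893 host genes were called. This was nAcRalpha-7E, another acetylcholine receptor subunit gene. It had 2.05 to 6.38 reads per 10000 in the RNase R libraries and 0 in all 8 mock libraries (edgeR adjusted p = 0.024). Only the RNase R libraries carried it past the count filter, so this call too rests on the reads that admitted it. In a single mock library 3 reads equal 8.75 to 37.5 per 10000, above every RNase R value. The ratio would be 1.86 with 3 reads over the mock group, and its exact 95% lower limit was 1.44, counting error only. nAcRalpha-7E was not called by DESeq2 or without slow29 replicate 2, WT29 replicate 1 or WT29 replicate 2. Between genotypes in RNase R heads 0 of 24 were called, where 3.03% of 1221 junctions were. Their median log2 fold change was -0.49, beside -0.14 over all tested junctions. Between title numbers in RNase R heads 2 of 24 were called, both higher, where 14.7% of 1221 junctions were called (5.65% higher). CG11155, an ionotropic glutamate receptor gene (4:1150061-1151212), had 54.9 ± 6.33 reads per 10000 at 29 and 27.2 ± 7.01 at 18 (SD, n = 4 each), a log2 fold change of 0.997 ± 0.22 (edgeR adjusted p = 2.1e-04). GluClalpha, a glutamate-gated chloride channel gene (3R:15585987-15586756), had 14 reads at 29 and 0 at 18 (edgeR adjusted p = 0.012). Of the 14 reads, 8 were in WT29 replicate 1. Only the 29 libraries carried GluClalpha past the count filter, so its inclusion and its call rest on the same reads. The ratio would be 3.10 with 3 reads over the 18 group, and its exact 95% lower limit was 2.20, counting error only. Receptor junctions called in this comparison numbered 1 in DESeq2 and without WT18 replicate 1 or 2. They numbered 3 under RLE, over all tested junctions or without a count filter. On summed reads 1 of 16 such host genes, CG11155, was called, where 15.1% of 828 host genes were. In mock heads 1 such junction could be tested in each comparison and was not called. There 0% (genotype) and 4.78% (title number) of 230 junctions were called. DopR, a dopamine receptor gene, was the only other receptor with S2 reads (3).

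Over the 8 RNase R head libraries, the junctions of other genes whose levels ranked most like each leading junction were named from 312 or 313 junctions with at least 50 reads. For mGluRA these were Gprk1 and CG40263 (Spearman rho 0.95 each) and CG33275 (0.93). For CG9935 they were CG2893 (0.90), CG17816 (0.88) and mbl (0.88). For 5-HT2 they were MESK2 (0.88), CG4266 (0.83) and CG17304 (0.83). The 8 libraries share their grouping by title number and genotype and their depth, so these values describe likeness of order only.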

How the data were processed

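Per the labels' protocol, ribosomal RNA was removed with Ribominus, RNA was RNase R treated (3 units per microgram, 15 min, 37 °C) or mock treated, and TruSeq RNA libraries followed. CASAVA, Bowtie and build dm3 are named, per the submitters' processing notes; versions, the junction caller and its thresholds are not given in the sources used here. The deposited values are counts of reads per back-splice junction and library, in 4 tables whose smallest row total is 2 reads; a library not listed at a junction was taken as 0. The deposited per-library counts stand as comma-separated lists in 1 column, which were split; another column holds their sum.

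Counts of the 2 replicate tables were joined on exact position and strand. Junctions listed in both, with 10 or more reads over the libraries of the fit, coming from 2 or more of these, were tested with edgeR 4.0.16 (quasi-likelihood F-test, two-sided, Benjamini-Hochberg adjusted over all tested junctions, called below 0.05; R 4.3.3, limma 3.58.1). TMM factors were taken over the 100 tested junctions with the highest mean reads per 10000. The RNase R comparison had the RNA sample as its block; genotype and title number were factors of 1 model in the others. The SE is the absolute log2 fold change divided by the square root of F, and so restates the test. Host genes were tested likewise on summed reads. The code was tested on data simulated at a single assumed dispersion, without RNA sample effects and with changes placed at random over all junctions. Its recovery rates pool junctions of all read counts and do not give the power for the leading members. At junctions the code recovered 8.06% of 2-fold changes for RNase R against mock, and 10% each between genotypes and title numbers in RNase R heads. For 4-fold changes these were 37.1%, 43.8% and 47.6%. In mock heads 2-fold recovery was 15.4% between genotypes and 0% between title numbers. A junction not called may therefore still differ. Named are members with at least 10 head reads, receptor junctions that passed a test, and the 3 junctions most like each leading junction. Alternatives were other scalings, DESeq2 1.42.0, other count filters, junctions listed in either table, the replicate block and each library left out. The members and lists were chosen with earlier results of these data known. Across 12 pairs of same-numbered libraries, deviations from group means correlated at -0.056 to 0.12, so the replicate numbers were not taken to pair libraries.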

Additional observations from a re-analysis of the deposited data

Results flagged for a closer look

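In groups of 4 or 8 libraries, 98 sets of values were examined for 1 library far from the others, and 7 (7.143%) had one. The limit used is passed by about 1 in 20 separate sets of normally distributed values. These are sparse counts, the sets share libraries and the gene sums contain the junctions. A set with reads in 1 library only is always flagged, as with mGluRA junction 1 and the mGluRA sum at 18 and CG9935 junction 3 in slow. The 7.143% can therefore not be set beside that rate. All 7 lie in groups of 4 mock head libraries, where a read is worth several reads per 10000. 5-HT2 junction 1 was 0 in slow29 replicate 2, against 25.9 to 28.3 in the other 29 libraries. mGluRA junction 1 was 58.4 reads per 10000 in WT29 replicate 1, against 25.9 to 31.0 in the other 29 libraries, and the mGluRA sum was 61.3 in the same library. mGluRA junction 1, and with it the mGluRA sum, was 12.7 in WT18 replicate 1, against 0 in the other 18 libraries. CG9935 junction 2 was 0 in slow29 replicate 1, against 11.1 to 13.3 in the other 29 libraries. CG9935 junction 3 was 4.43 in slow29 replicate 2, a single read, against 0 in the other slow libraries.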

How the results depend on the processing

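The count of members called moved by over 1.5 times in few settings. For 29 against 18 in mock heads it was 0 junctions and 0 host genes under DESeq2 and without a count filter, against 1 and 1. Asking for at least 50 reads also gave 0 and 0, but mGluRA, with 39 junction reads and 40 in sum, was then not tested. For RNase R against mock it was 2 host genes under RLE, TMM over all tested rows and DESeq2, against 1. Leaving out 1 library at a time gave 1 to 3 junctions and 1 to 2 host genes for 29 against 18 in RNase R heads, 0 to 1 and 0 to 1 in mock heads, and 2 to 3 junctions and 1 to 2 host genes for RNase R against mock. For slow against WT these counts stayed at 1 in RNase R heads and 0 in mock heads. Signs changed for mGluRA junction 1 after RNase R (0.38, TMM over all tested rows) and for 5-HT2 junction 1 between genotypes in RNase R heads (RLE 0.11, DESeq2 0.11, the 100 junctions with most summed reads 0.054; -0.047 to 0.095 without 1 library) and in mock heads (-0.69 to 0.38 without 1 library); the cause was not tested. Without 1 library, the difference in the leading junction's share ran from -0.187 to 5.26 percentage points for 5-HT2 and -0.130 to 3.06 for mGluRA between genotypes, and from -2.40 to 0.785 for mGluRA and -7.73 to 6.16 for CG9935 between title numbers.

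Over all junctions, TMM over all tested rows called 305 for RNase R against mock in place of 100, DESeq2 65 and at least 50 reads 57. DESeq2 called 10 in place of 37 between genotypes, and 89 in place of 179 between title numbers in RNase R heads. Asking for at least 50 reads gave 112 in the last and 2 in place of 0 between genotypes in mock heads. For 29 against 18 in mock heads DESeq2 gave 1, no filter 1 and at least 50 reads 4 in place of 11. Over host genes, TMM over all tested rows gave 199 and at least 50 reads 51 in place of 84 for RNase R against mock, and DESeq2 gave 13 in place of 44 between genotypes and 61 in place of 125 between title numbers. In mock heads the host gene calls were 0 to 3 between genotypes in place of 1, and 0 to 10 between title numbers in place of 5. Single libraries moved these counts too: 60 junctions without WT29 replicate 1 for RNase R against mock, 18 without slow29 replicate 2 between genotypes (with 18 host genes, and 28 without slow18 replicate 1), and 105 without WT18 replicate 2 between title numbers in RNase R heads. In mock heads the 11 junctions between title numbers became 2 without either WT29 replicate, 3 without slow18 replicate 2, 4 without slow29 replicate 2 or WT18 replicate 1, and 6 without slow29 replicate 1 or WT18 replicate 2. A replicate block changed no member's call (37 junctions called between genotypes and 163 between title numbers in RNase R heads, and 8 host genes in place of 5 between title numbers in mock heads), and leaving out the RNA sample block gave 106 for RNase R against mock. TMM over the 100 junctions with most summed reads was chosen after seeing the data. Matching junctions within 5 bases gave the same S2 and stranded counts. Depth limits the mock libraries most: 3 reads equal 8.75 to 37.5 reads per 10000 there.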
